A study of Mus musculus with 6 samples.

Results

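The cells described here are activated microglia with high RNA for Csf1, Egr3, Tnf, Il1a and Hcar2, found in mouse brain and early mouse gliomas. They were chosen by their own RNA, in 2 steps. A barcode was first gated as microglia when 6 microglial genes (Tmem119, Olfml3, Gpr34, Crybb1, Golm1 and Slc2a5) gave at least 3 unique molecular identifiers (UMIs, counted RNA molecules) and more UMIs than border macrophage genes (Mrc1, Pf4, Cbr2, Cd163, Lyve1) and monocyte genes (Ms4a4c, Plac8, Lyz1, Ly6i, Ly6c2) together. At most 1 UMI from the T, NK and B cell genes Cd3d, Cd3e, Cd3g, Trac, Nkg7 and Cd79a was allowed. A gated barcode was then counted as an activated cell when at least 3 of the 5 genes Csf1, Egr3, Tnf, Il1a and Hcar2 were detected. The rule found 1114 cells among 9877 gated microglia and 17362 barcodes in all, of which 950 came from tumours and 164 from healthy brain. The 5 genes were proposed from earlier results on the same files, and the activated state and the contrast with other microglia are therefore given as descriptions, without a test.

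CD45+ immune cells of brain tissue were profiled with 10x droplet chemistry in 6 libraries, 2 per group. The healthy group had wild-type Trp53 and Rbpj. Control tumours lacked Trp53 and kept Rbpj, and Rbpj-deleted tumours lacked both Trp53 and Rbpj, so that Trp53 loss is shared by all 4 tumour libraries. By the series text, 9 brains were pooled for the healthy group, 15 gliomas for the control group and 9 for the group without Rbpj, whereas the protocol describes mice kept in separate wells. No source used here says which animals entered which library. Early gliomas were dissected under the GFP of a Rosa-CAG::GFP reporter of Cre activity. The sources used here name neither the promoter that drives Cre nor microglia as carriers of either deletion. Replicates may therefore be technical in part, and p-values measure the spread between these libraries.

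Microglia are the resident macrophages of the brain. On sensing tissue damage, microbial products or nucleotides they switch on immediate early genes such as Egr3 and Fos within a short time, and nuclear factor kappa B (NF-kB) and its targets, which include the cytokines Tnf, Il1a and Il1b and the chemokines Ccl3 and Ccl4. NF-kB also switches on its own inhibitors, among them Nfkbia and Tnfaip3, which limit the response. Csf1 is a growth factor for microglia and macrophages, Egr3 a zinc finger transcription factor, Tnf and Il1a inflammatory cytokines, and Hcar2 a receptor for nicotinic acid and the ketone body beta-hydroxybutyrate. Enzymatic dissociation of brain is also known to induce immediate early genes in microglia.

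The 5 genes lie on different chromosomes and code for protein (GENCODE vM21, GRCm38, the mm10 build). Csf1 (ENSMUSG00000014599) lies at chr3:107741048-107760469 on the minus strand and Egr3 (ENSMUSG00000033730) at chr14:70077203-70082614 on the plus strand. Tnf (ENSMUSG00000024401) lies at chr17:35199381-35202007, Il1a (ENSMUSG00000027399) at chr2:129299610-129309972 and Hcar2 (ENSMUSG00000045502) at chr5:123863570-123865499, each on the minus strand. Promoter windows of 300 bases, with 250 before the start of the gene and 50 after it, were available for Csf1, Tnf and Il1a from RefSeq (GRCm38.p6), and that of Nr4a1, one of the genes most raised in the activated cells, was added after its values had been seen. They are shown 5′ to 3′ on the strand of the gene because the 4 genes have high RNA in the same cells, and capitals mark matches to the motifs named after them.
Csf1 promoter, chr3:107760420-107760719, minus strand: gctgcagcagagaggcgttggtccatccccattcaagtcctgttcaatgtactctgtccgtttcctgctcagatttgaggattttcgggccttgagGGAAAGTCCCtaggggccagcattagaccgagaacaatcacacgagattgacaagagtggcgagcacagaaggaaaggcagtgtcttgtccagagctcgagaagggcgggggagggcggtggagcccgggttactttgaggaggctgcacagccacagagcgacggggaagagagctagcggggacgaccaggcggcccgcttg
Tnf promoter, chr17:35201958-35202257, minus strand: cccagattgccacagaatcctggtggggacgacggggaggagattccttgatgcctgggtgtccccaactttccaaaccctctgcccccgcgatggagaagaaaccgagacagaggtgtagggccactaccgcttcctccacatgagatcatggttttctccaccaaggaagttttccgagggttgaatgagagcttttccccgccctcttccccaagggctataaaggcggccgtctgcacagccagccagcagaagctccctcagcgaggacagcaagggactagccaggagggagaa
Il1a promoter, chr2:129309923-129310222, minus strand: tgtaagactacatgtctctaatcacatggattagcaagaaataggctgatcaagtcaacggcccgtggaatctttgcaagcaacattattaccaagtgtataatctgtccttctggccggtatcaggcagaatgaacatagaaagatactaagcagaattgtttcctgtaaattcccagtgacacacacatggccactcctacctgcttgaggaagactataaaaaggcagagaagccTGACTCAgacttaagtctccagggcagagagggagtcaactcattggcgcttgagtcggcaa
Nr4a1 promoter, chr15:101266596-101266895, plus strand: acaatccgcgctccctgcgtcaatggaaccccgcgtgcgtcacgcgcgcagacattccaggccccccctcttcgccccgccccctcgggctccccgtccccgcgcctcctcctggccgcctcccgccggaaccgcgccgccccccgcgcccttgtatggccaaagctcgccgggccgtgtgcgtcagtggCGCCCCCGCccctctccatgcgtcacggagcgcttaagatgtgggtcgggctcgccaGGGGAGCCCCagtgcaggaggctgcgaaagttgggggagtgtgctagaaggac
The motifs searched on both strands were the NF-kB consensus, the AP-1 site TGANTCA, the cAMP response element TGACGTCA, the Egr site GCGNGGGCG and the CArG box of serum response factor. Csf1 had 1 NF-kB match (GGAAAGTCCC), Il1a 1 AP-1 match (TGACTCA), and Nr4a1 1 Egr match (CGCCCCCGC) and 1 NF-kB match (GGGGAGCCCC). The NF-kB and Egr motifs read along the strand opposite to the one shown, and the Tnf window held none of the 5. The window of Il1b, also searched after its values had been seen and not shown, held none either. Among 32851 mouse promoter windows of this length, 4.505% held an NF-kB match, 7.808% an AP-1 match, 5.552% an Egr match, 1.79% a cAMP response element and 1.629% a CArG box. A match describes these letters only, and no factor binding was measured.

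Activated cells formed a far larger share of the gated microglia in tumours than in healthy brain. In healthy replicates 1 and 2 they were 131 of 5524 (2.37%, exact 95% binomial interval 1.99 to 2.81%) and 33 of 1952 (1.69%, 1.17 to 2.37%). Control tumours held 115 of 289 (39.8%, 34.1 to 45.7%) and 84 of 246 (34.1%, 28.2 to 40.4%). Rbpj-deleted tumours held 658 of 1242 (52.98%, 50.2 to 55.8%) and 93 of 624 (14.9%, 12.2 to 17.9%). All 4 tumour libraries lay above both healthy libraries, and the 2 Rbpj-deleted libraries lay on either side of the controls. The intervals cover counting error only. The difference between tumours and healthy brain is a description, since the cells were chosen with their presence in tumours known.

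The mean share was 33.9% ± 26.9 (SD, n = 2 libraries) in Rbpj-deleted and 37.0% ± 3.99 (SD, n = 2) in control tumours, a difference of -3.03 percentage points (exact permutation test, two-sided, p = 1; 2 libraries against 2 cannot go below 0.333). Leaving out Rbpj-deleted replicate 1 gave -22.1 points and leaving out its replicate 2 gave 16.0 points, so its direction rested on single libraries. The activated cells were also the more deeply read ones. Their median was 8414 to 14932 UMIs per cell over the 6 libraries, against 5140 to 7642 in other gated microglia. When every cell was thinned to 2000 UMIs before the 5 genes were called, the shares were 0.135% and 0.0585% in healthy brain, 11.5% and 9.66% in control tumours, against 22.9% and 2.22% with Rbpj deleted. The order of the 6 libraries was the same as without thinning, at a lower level, and the mean difference between Rbpj-deleted and control tumours turned to 2.01 points.

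**Figure D1:**
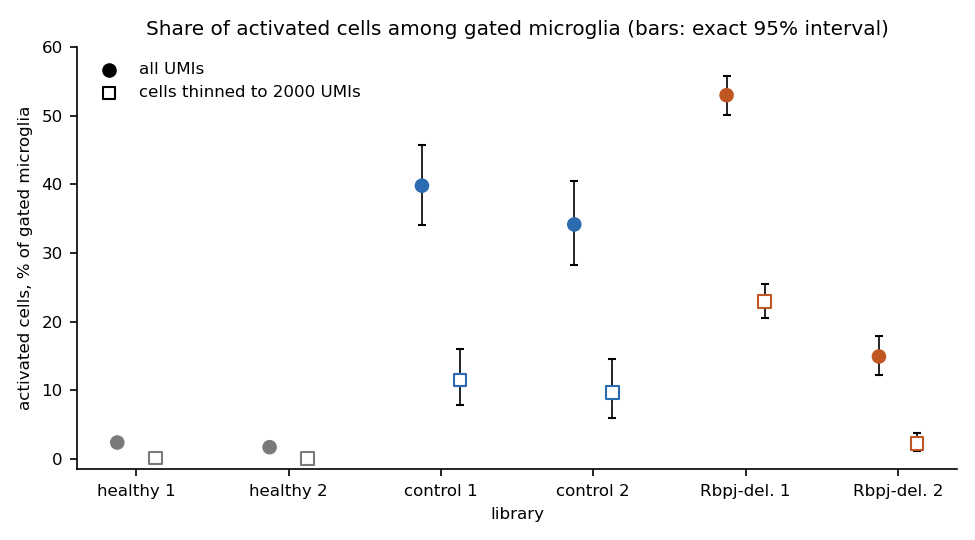
Share of activated cells among gated microglia in each of the 6 libraries, in percent (vertical axis), from all UMIs (filled circles) and after thinning each cell to 2000 UMIs (open squares), with exact 95% binomial intervals. The tumour libraries range from 14.9% to 52.98% and the healthy ones from 1.69% to 2.37% with all UMIs.

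Other cell types with 3 of the 5 genes detected were counted as a background. Among barcodes with T, NK or B cell RNA, 0% to 6.43% had at least 3 of the 5 genes in each library, with medians of 3503 to 9779 UMIs, and 0% to 0.274% after thinning. Border macrophage RNA barcodes had at least 3 of the 5 genes in 12.8% to 22.7% of cells in 3 tumour libraries and in 3.21% in Rbpj-deleted replicate 2. Monocyte RNA barcodes did so in 7.002% to 29.6% of cells in tumours. After thinning, the tumour shares were 0.966% to 5.37% for border macrophage and 0.364% to 7.69% for monocyte RNA barcodes. The 7.69% came from 2 of 26 cells in control replicate 2, where gated microglia had 9.66%. Among border macrophage and among monocyte RNA barcodes, Rbpj-deleted replicate 2 was the lowest tumour library, as it was among microglia.

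Just outside the threshold, 56 and 47 gated cells of control tumours and 195 and 117 of Rbpj-deleted tumours had exactly 2 of the 5 genes. Just inside it, 47 and 44 and then 236 and 60 cells had exactly 3. The mean Il1b level over the 4 tumour libraries, in counts scaled to a common library total (CPM) over the summed cells, was 479 ± 273 (SD, n = 4) in cells with 2 genes and 957 ± 569 in cells with 3. In cells with all 5 genes it was 2065 ± 1050.2, and in cells with none of the 5 it was 187 ± 234. Nr4a1, a nuclear receptor of the immediate early class, ran from 86.9 ± 51.4 CPM in cells with none to 255 ± 110.4 with 2, 468 ± 208 with 3 and 701 ± 219 with 5. Siglech, a microglial surface lectin, ran the other way, from 1273 ± 371 CPM with none to 1027 ± 341 with 3 and 798 ± 341 with 5. Levels of these 3 genes differed by degrees along the count of detected genes.

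The label of the cells was checked against further microglial genes, which the gate did not use, and against markers of other cell types. Of those, 5 border macrophage and 5 monocyte genes also served in the gate, which kept their UMIs below those of the microglial genes. The 8 border macrophage genes summed to 97.5, 173, 248 and 409.6 CPM in the activated cells of the 4 tumour libraries against 188, 130.2, 145 and 525 CPM in other microglia, higher in 2 of the 4. In healthy replicates 1 and 2 these genes summed to 602 and 46.8 CPM in activated cells, against 260 and 71.1 CPM in the others. Cells with no UMI of the border macrophage and monocyte genes of the gate were 19.4% to 35.7% of activated tumour cells and 48.6% to 67.9% of the others, which were less deeply read. The 10 further microglial genes, which include Cx3cr1, Csf1r and Sall1, summed to 16488 to 20199 CPM in the activated tumour cells and 21049 to 22425 CPM in the other microglia. The microglial identity genes were therefore present in the activated cells, at a lower level. P2ry12, a defining microglial receptor, was at only 2.54 to 9.75 CPM in the activated tumour cells and 6.04 to 17.9 CPM in the others. Gapdh, which every cell uses, was at 2.07 CPM or less in all of these sums, so a low value of a single gene in this table does not show that the gene is off. T and NK genes summed to 13.8 to 24.7 CPM, neuronal genes to at most 0.94 CPM and erythroid genes to at most 1.38 CPM in activated tumour cells, and Ms4a1, Syt1 and Hba-a1 were at 0 in them. Dendritic cell genes summed to 562 to 1254 CPM against 791 to 1516 CPM in the others, with 1 of the 7 higher and 1 lower in all 4. That list includes the microglial gene Siglech, at a mean of 1027 CPM in tumour cells with 3 of the 5 genes and 798 CPM with 5. The dendritic sums therefore say little about dendritic cell RNA. B cell genes summed to 311 to 411 against 397 to 455 CPM. Monocyte genes summed to 248 to 388 CPM in the activated cells against 120 to 218 CPM in the others, with 4 of the 8 higher in all 4 tumour libraries. Activated cells of healthy replicates 1 and 2 had monocyte sums of 114 and 9.36 CPM, against 53.2 and 37.5 CPM in the others. Neutrophil genes summed to 665 to 1059 CPM against 230.3 to 669 CPM in tumours, with 2 of 5 higher in all 4. In healthy replicates 1 and 2 they summed to 1455 and 3650 CPM in activated cells, against 825 and 455 CPM in the others. The part of these RNAs in the profile below was not tested.

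The 5 genes that chose the cells were at high level in them in every library. Csf1 was at 222 and 287 CPM in activated cells of healthy replicates 1 and 2, 381 and 387 CPM in control tumours, against 633 and 223 CPM with Rbpj deleted. Other microglia had 42.8 and 28.01, 80.0 and 104, and 163 and 101 CPM in the same order. Rbpj-deleted replicate 1 had the most Csf1 in both cell groups. Egr3 was at 194 and 203 CPM in activated cells of healthy brain, 539 and 522 in control tumours, against 643 and 186 with Rbpj deleted, where replicate 2 lay below both healthy libraries. Tnf was at 116 and 153 CPM in healthy, 480.1 and 416 in control and 842 and 461 in Rbpj-deleted libraries, with all tumour libraries above both healthy ones.

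Il1a was at 28.3 and 96.7 CPM in activated cells of healthy brain, 145 and 70.9 in control tumours, against 100.5 and 40.7 with Rbpj deleted. The groups overlapped for Il1a. Hcar2 was at 14.6 and 40.6 CPM in healthy, 90.1 and 90.9 in control and 124 and 201 in Rbpj-deleted libraries, and the 3 groups did not overlap. Within libraries, the activated cells exceeded other microglia by 1.80 ± 0.47 for Csf1, 2.35 ± 0.67 for Egr3, 2.05 ± 0.51 for Tnf, 2.19 ± 0.48 for Il1a and 1.90 ± 0.22 for Hcar2 (log2 ratio with 1 CPM added, mean ± SD over 4 tumour libraries). These differences follow from the rule. When the UMIs of each cell were split at random, with cells chosen on one portion and levels read from the other, they were 1.74, 1.95, 1.78, 1.26 and 1.34.

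**Figure D2:**
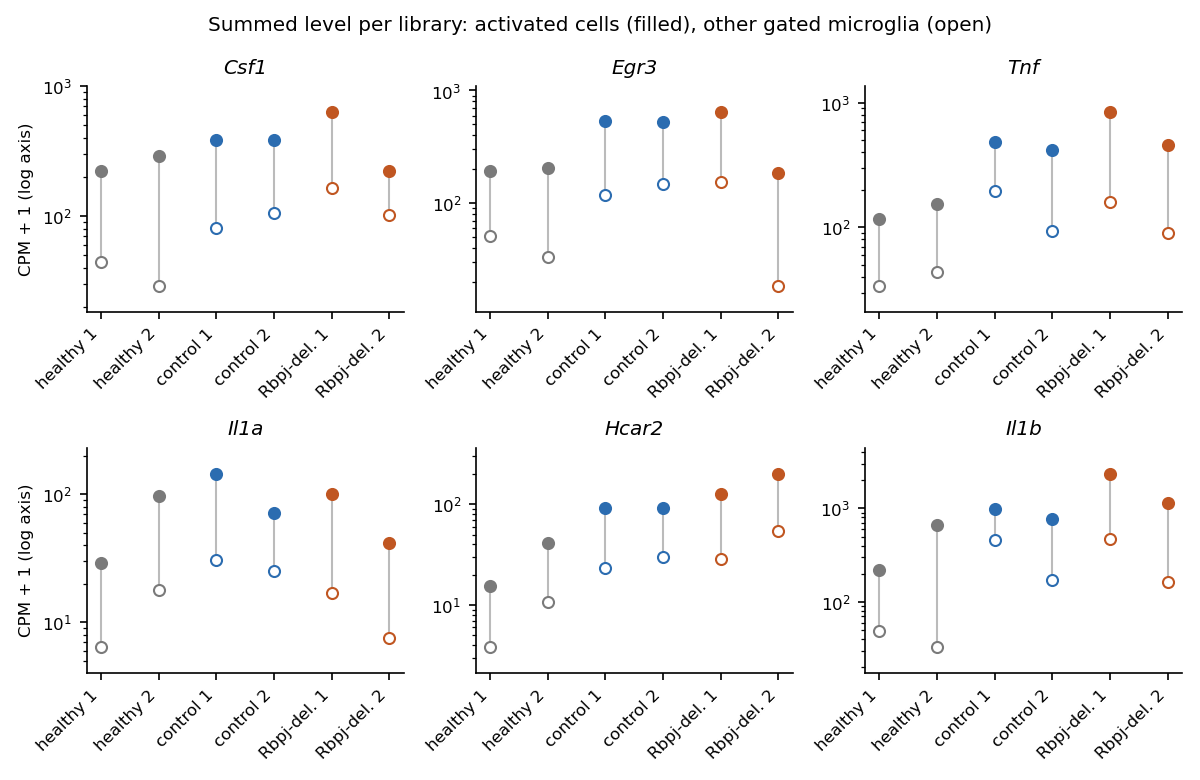
Level of the 5 genes of the rule and of Il1b in CPM plus 1 (log axis) per library, for the summed activated cells (filled) and the summed other gated microglia (open), joined by a line. In all 6 libraries and for all 6 genes the activated cells lie above the others, and the tumour libraries lie above the healthy ones for Tnf.

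Outside the genes of the rule and the gates, 5599 genes reached 20 CPM and were compared within libraries. Of these, 9 genes (0.161%) were at least 2-fold higher in activated cells than in other microglia in all 4 tumour libraries, and 5 (0.0893%) were at least 2-fold lower. Without a size limit, 747 genes (13.3%) were higher and 986 (17.6%) lower in all 4. The median of the 5599 genes was -0.03 on the log2 scale. The cells were chosen on their own RNA, so these counts describe the cells and are not evidence of a separate state.

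The 9 higher genes were Il1b, Nr4a1, Nr4a3, Egr2, Dusp5, Cd274, Plaur, Grasp and Acod1. Il1b, the other interleukin-1 cytokine, was at 987 and 768 CPM in activated cells of control tumours, with 2353 and 1139.8 in Rbpj-deleted ones, against 456, 169, 473 and 164 CPM in the other microglia of the same libraries. In healthy brain it was at 217 and 658 CPM against 48.1 and 31.9. The within-library log2 ratio of Il1b ran from 1.11 to 2.79 in tumours. Activated cells were above other microglia of their library in 6 of 6 libraries. The largest ratio was in healthy replicate 2, at 4.32 from 33 cells. Neutrophil genes summed to 3650 CPM in these cells, against 455 CPM in the other microglia of that library. Their part in this ratio was not tested.

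Nr4a1 was at 580.5 and 511 CPM in activated cells of control tumours, with 779 and 266 in Rbpj-deleted ones, against 241, 186, 247 and 75.6 in other microglia. Its ratio varied little over the tumour libraries (1.54 ± 0.23), although its level in Rbpj-deleted replicate 2 was the lowest of the tumours in both cell groups. Egr2, a relative of Egr3, gave 1.38 ± 0.21, Nr4a3 1.40 ± 0.32 (but -0.82 and -1.15 in healthy brain) and Dusp5, a phosphatase that acts on ERK kinases, 1.42 ± 0.22. Cd274, which codes for the checkpoint ligand PD-L1, was at 83.7 and 90.9 CPM in activated cells of control tumours, with 97.2 and 109 CPM in Rbpj-deleted ones. The other microglia had 31.2, 42.3, 39.7 and 41.0 CPM. Both cell groups of healthy brain were lower in Cd274, with 14.1 and 15.6 CPM in activated and 6.72 and 6.20 CPM in other microglia.

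Acod1, the enzyme that makes itaconate, was at 14.9, 27.5, 56.7 and 99.2 CPM in the activated cells of the 4 tumour libraries and 5.42, 1.63, 10.3 and 4.99 CPM in the others. Plaur, the urokinase receptor, was at 43.5 to 56.8 CPM against 5.70 to 20.3 CPM. After thinning to 2000 UMIs the mean log2 ratio of Plaur turned from 1.70 to -0.19 and that of Grasp from 1.87 to -0.02. Among genes at 100 CPM or more, others that led by their smallest ratio were the chemokine Ccl7 (1.64 ± 0.66), Tnfaip2 (1.63 ± 0.81), the ubiquitin-like Isg15 (1.24 ± 0.58), the NF-kB inhibitor Nfkbid (1.15 ± 0.46), Rilpl2 (1.04 ± 0.17), the integrin Itgax (0.67 to 1.41 over the libraries), the cell cycle inhibitor Cdkn1a (1.03 ± 0.25), the maturation marker Cd83 (0.96 ± 0.20) and Plekho2 (0.93 ± 0.19). Of these, Ccl7 was not higher in healthy replicate 2, where it was at 0 CPM in the activated cells, and the rest were higher in both healthy libraries. Cd83 was the most abundant of them, at 1406, 1031, 1718 and 714 CPM in activated tumour cells and 881, 513, 789 and 343 CPM in the others.

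Among the 5 lower genes were Dcn, Mgp, Ptn and Igfbp7, which are known from stromal, meningeal or vascular cells rather than from microglia. In other microglia of the tumours, 1 cell gave 20.7% to 76.8% of the Ptn UMIs of its library. Dcn, a matrix proteoglycan, was at 195, 245, 284 and 18.1 CPM in other microglia of the 4 tumour libraries and at 0 to 2.07 CPM in activated cells. Its RNA was uneven among the other microglia. In control replicate 1 it was at 933 CPM in cells with none of the 5 genes and at 0 with 1 or 2. In control replicate 2 it was at 0 with none and 680 CPM with 1. Of the named genes that were lower, the transcription factor Maf (135, 176, 129.6 and 94.8 CPM in activated tumour cells against 203, 234, 201 and 146), Ltc4s, the leukotriene C4 synthase (218, 225, 150.4 and 184 against 342, 296, 304 and 274), and Hpgds, a prostaglandin D2 synthase (429.6, 435, 354 and 273 against 612, 574, 497 and 377), were below in every tumour library. Serpinf1, Ifi27, Eef2k, Cmtm6, Clec4a2, Phf14 and the small RNA locus Mir6236 completed the list, with mean log2 ratios of -0.97 to -0.45. Of these 10 genes, none was 2-fold lower by its mean, and Mir6236, Ltc4s and Ifi27 were in 1 library each.

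**Figure D3:**
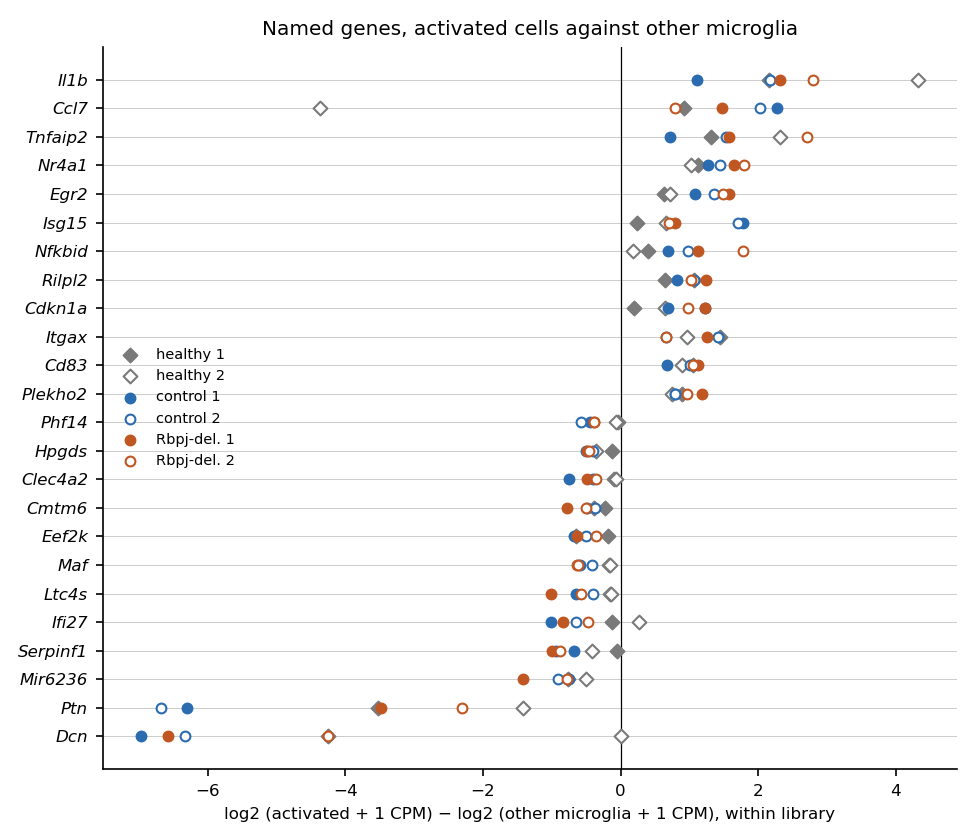
Within-library log2 ratio of activated cells over other gated microglia (horizontal axis, with 1 CPM added) for the 12 genes at 100 CPM or more with the highest smallest ratio and the 12 with the lowest largest ratio over the 4 tumour libraries; circles are tumour libraries and diamonds healthy ones. Il1b has the highest mean of those shown at 2.10, and Dcn and Ptn lie far below the rest with means of -6.03 and -4.69.

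By function, chemokine genes had the highest list median. With cells chosen and levels read on separate UMIs, their median was 0.71, level with class II genes (0.71) and below cell cycle genes (0.95). Of 18 listed, 12 reached 20 CPM, 7 of them were higher in all 4 tumour libraries and 0 lower, with a median ratio of 0.94 against -0.03 over all genes. Ccl4 was at 6985, 5918, 10183 and 4552 CPM in activated cells of the tumour libraries against 4705, 2688, 4209 and 2053 CPM in others, and Ccl3 at 3273, 2612, 4890.5 and 2034 against 2359, 1431, 1929.7 and 1088. Both are chemokines that attract immune cells. Control replicate 1 showed the smallest ratio for each, at 0.57 and 0.47. Ccl5, Ccl8, Cxcl2 and Cxcl13 were higher in some libraries and lower in others.

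Among NF-kB subunits and feedback genes, 11 of 16 were higher in all 4 libraries and 0 lower (median 0.47). Nfkbia, Nfkbiz and Tnfaip3 differed more than the subunits Nfkb1, Rela and Rel. Nfkbia was at 1461, 1267, 1754 and 1451 CPM in activated tumour cells against 1081, 652, 863 and 498 CPM, a ratio of 0.99 ± 0.45, with Nfkbiz at 1.23 ± 0.55 and Tnfaip3 at 0.96 ± 0.54. The subunits Nfkb1 (0.06 ± 0.19), Rela (0.08 ± 0.06) and Rel (0.39 ± 0.19) differed less. Of the receptors and partners of Tnf, interleukin-1, Csf1 and Hcar2, 5 of 11 were higher and 1 was lower in all 4 (median 0.08). Csf1r, the receptor for Csf1, was the lower one, at 2268 to 3058 CPM against 2728 to 3292 CPM, a ratio of -0.22 ± 0.09. The Tnf receptor genes Tnfrsf1a (0.08 ± 0.04) and Tnfrsf1b (0.20 ± 0.17) were close to even.

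Immediate early genes were raised as a list, although not every member was. Of 28 in the list, 15 were higher and 1 lower in all 4 tumour libraries. Among all 5599 genes, 13.3% were higher and 17.6% lower in all 4. The list median was 0.42 against -0.03 over all genes, and 0.65 against -0.43 after thinning. Nr4a1, Egr2, Nr4a3, Dusp5 and Dusp2 (1.48 ± 0.58) led. Jun (-0.07 ± 0.23), Jund (-0.05 ± 0.13) and Ier5 (0.06 ± 0.12) were near even. Atf3 (0.35 to 1.33), Ier2 (0.14 to 1.20) and Zfp36 (0.06 to 0.93), like Jun known to be induced by dissociation, were higher in each tumour library. Fos (0.22 ± 0.50) was lower in both control libraries and higher in both Rbpj-deleted ones. Of 14 heat shock and stress genes, 1 was higher and 2 lower in all 4 (median 0.02), with Hspa1a at -0.50 ± 0.34. These counts did not exceed the shares of all genes, 13.3% higher and 17.6% lower. Levels of Jun itself were high in both cell groups, at 3686 to 5526 CPM in activated and 3414 to 6344 CPM in other microglia of the tumours, and the part of dissociation in the profile was not tested.

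Interferon-related and antigen presentation genes were higher too. Type I interferon response genes were higher in all 4 libraries for 14 of 17 (median 0.53), interferon-gamma response genes for 12 of 14 (median 0.56), class I presentation genes for 9 of 13 (median 0.31) and class II genes for 7 of 8 (median 0.74). Cd74, the class II invariant chain, was at 11175, 14099, 10911 and 7359.9 CPM in activated tumour cells against 4774, 11267, 5728 and 5016 CPM. In healthy replicate 2 it was lower in activated cells, at 59.3 against 157 CPM. Ifngr1, the interferon-gamma receptor chain, was the only gene of its list that was lower in all 4 (-0.46 ± 0.15). Cell cycle genes were higher in all 4 for 13 of 13 (median 0.68), with ratios that differed between tumour groups as given below. After thinning to 2000 UMIs the cell cycle median was 0.06 and that of all genes -0.43.

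Homeostatic microglial genes outside the gate were lower. Of 21 at 20 CPM, 0 were higher and 16 lower in all 4 tumour libraries, with a median of -0.26. Cst3, the most abundant, was at 36451, 44816, 41686 and 28729 CPM in activated cells against 47539, 57288, 65656 and 43692 CPM in others. Fcrls was at 992, 935, 531 and 1065 CPM against 1783, 1099, 1322 and 1697 CPM. Siglech (-0.37 ± 0.16) and Cx3cr1 (-0.26 ± 0.14) were lower in each tumour library. Of 19 disease-associated microglia genes, 8 were higher, among them Itgax, Cst7 and Axl, and 4 were lower, among them Trem2 (-0.23 ± 0.09) and Cd68 (-0.24 ± 0.13). The median of that list was 0.28. Of all 5599 genes, 13.3% were higher and 17.6% lower in all 4, so the 4 lower genes were near the share of all genes.

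**Figure D4:**
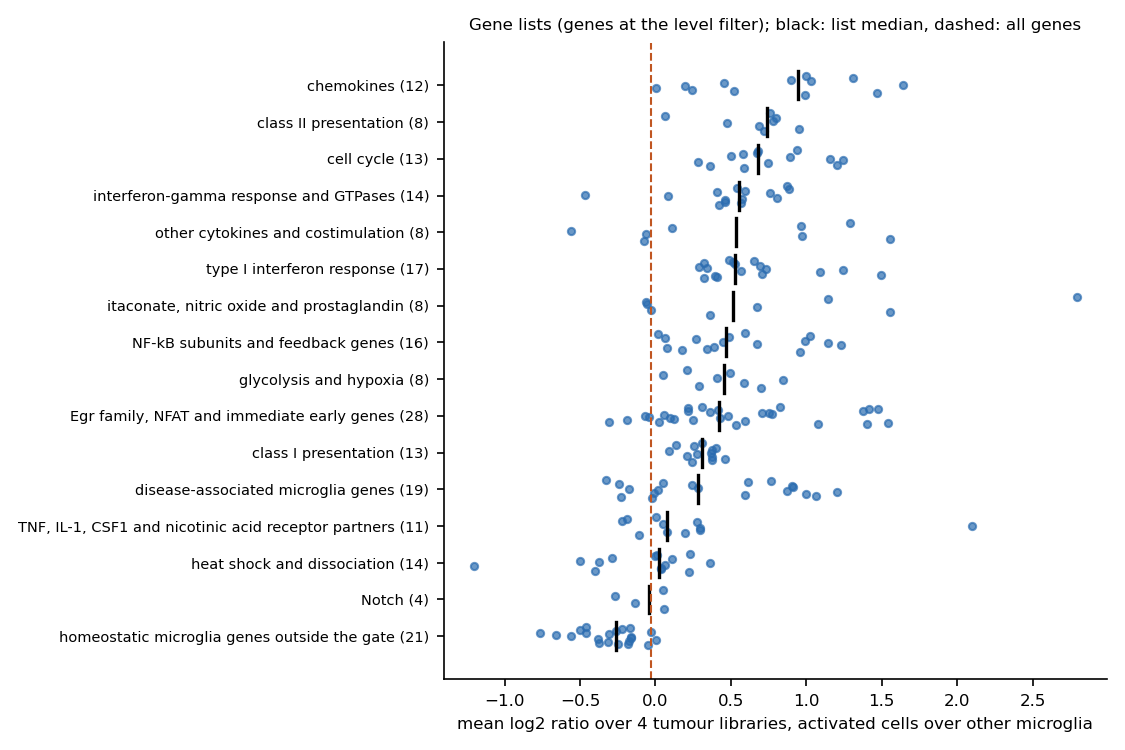
Mean log2 ratio of activated cells over other microglia for each gene at 20 CPM (points) in 16 lists, over 4 tumour libraries; black bars are list medians and the dashed line is the median of all 5599 genes, -0.03. List medians run from 0.94 for chemokines to -0.26 for homeostatic microglial genes.

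The next comparison asks what differs between activated cells of Rbpj-deleted and control tumours. Rbpj itself, through which Notch receptors act on DNA, was at 44.2 and 37.2 CPM in activated control cells, against 44.0 and 35.0 CPM with Rbpj deleted (log2 difference 0.04 ± 0.26 SE, adjusted p = 0.99, edgeR quasi-likelihood test). Its RNA in these cells did not separate the groups, and 3′ reads need not lie in a deleted part of the gene. Over 8631 genes tested in the summed counts of the activated cells, 67 (0.776%) passed an adjusted p under 0.05, 34 higher and 33 lower in Rbpj-deleted tumours. The same contrast in other microglia called 32 of 9678 genes (0.331%). The 5 genes of the rule chose these cells, so the fit cannot judge them. Their estimates, such as 0.89 ± 0.26 SE for Hcar2 and 0.61 ± 0.29 SE for Tnf, are descriptions only.

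Many of the 67 genes separated the libraries in a second way. For 40 of them (59.7%), other microglia of healthy replicate 2 differed at least 2-fold from those of healthy replicate 1 in the direction of the Rbpj contrast, as against 2.09% of all genes tested, although both healthy libraries carry intact Rbpj. H2-Eb1, a class II chain, was at 64.2 and 75.0 CPM in activated cells of control and 5957 and 4169 CPM in those of Rbpj-deleted tumours, with 2.17 and 51.2 CPM in other microglia of healthy replicates 1 and 2. Trim30d was at 1.72 and 3.44 against 88.1 and 74.4 CPM, with 0.734 and 66.5 CPM in the healthy libraries. Tpm3 was at 494 and 471 against 66.2 and 56.6 CPM, with 429.7 and 89.8 CPM in the healthy libraries. H2-Ea-ps, H2-K2, H2-T22, Trim12a, Tpm3-rs7, Hpgd and the gate gene Slc2a5 behaved likewise. The Y-linked genes Ddx3y, Uty and Eif2s3y were also among the 33 lower ones. For these genes the Rbpj deletion and another difference between the mice or libraries cannot be told apart. The genes below were compared between the same libraries, so the limit holds for them too.

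Gadd45b, an NF-kB target that acts in stress signalling, rose from 131 and 129 CPM in control to 393 and 384 CPM in Rbpj-deleted tumours (log2 difference 1.64 ± 0.24 SE, adjusted p = 0.0023, edgeR). Healthy activated cells had 87.5 and 81.1 CPM. Ptgs2, the inducible prostaglandin synthase, rose from 60.2 and 45.4 CPM to 168 and 118 CPM (1.51 ± 0.26 SE, adjusted p = 0.012, edgeR). In control replicate 2, 1 cell gave 33.3% of the Ptgs2 UMIs, and healthy replicate 2 was above healthy replicate 1 here too. Acod1 rose from 14.9 and 27.5 CPM to 56.7 and 99.2 CPM (1.91 ± 0.36 SE, adjusted p = 0.039, edgeR), with 1 cell giving 42.3% of its 26 UMIs in control replicate 1.

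Iigp1, an interferon-inducible GTPase, fell from 439.9 and 448 CPM in control to 139 and 181 CPM in Rbpj-deleted tumours (-1.42 ± 0.24 SE, adjusted p = 0.011, edgeR), with 5.92 and 3.12 CPM in healthy activated cells. Of 15 interferon-gamma response genes, Iigp1 alone passed, and 1 of the 15 had a positive estimate (median -0.51 against 0.00 for all genes tested). Hspa8, a heat shock chaperone, fell from 203 and 168 CPM to 84.8 and 85.9 CPM (-1.06 ± 0.23 SE, adjusted p = 0.0499, edgeR), with 55.6 and 212 CPM in activated cells of the healthy libraries. Hspa8 also passed as lower in the other microglia. The heat shock list had a median of -0.90 there and -0.50 in the activated cells. Apoc1, an apolipoprotein, fell from 129 and 98.4 CPM to 25.3 and 37.5 CPM (-1.86 ± 0.26 SE, adjusted p = 0.0020, edgeR), and 1 cell gave 41.3% of its UMIs in control replicate 2. Gadd45b and Iigp1 stayed past the threshold under every alternative in which they were tested. Ptgs2 lost its call with no lymphocyte UMI allowed (adjusted p = 0.051) and with 2 of the 5 genes (0.22). Acod1 lost its call with no lymphocyte UMI (0.16), with 4 of the 5 genes (0.60) and without cells over 20000 UMIs (0.74). Hspa8 lost its call with no lymphocyte UMI (0.082) and with 4 of the 5 genes (0.16). When all 6 libraries shared the spread, Ptgs2 (0.83), Acod1 (0.47) and Hspa8 (0.72) did not pass. Apoc1 lost its call without cells over 20000 UMIs (0.97, all edgeR). Ptgs2 also lost its call without control replicate 2 (estimate 1.34). Hspa8 lost its call whichever control library was left out (-1.17 without replicate 2, -0.93 without replicate 1).

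Il12b, Vegfa, Saa3 and Ch25h also passed as higher, each from few molecules in control tumours. Il12b, a subunit of interleukins 12 and 23, had 3 and 6 UMIs in the activated cells of control tumours against 512 and 70 UMIs in those of Rbpj-deleted tumours, and single cells gave 27.1% and 52.9% of the latter. Other microglia of control replicate 2 had 81.4 CPM of Il12b, 97.0% of it from 1 cell, and Il12b did not pass when 2 of the 5 genes sufficed (adjusted p = 0.89, edgeR). Vegfa, the vascular growth factor, had 4 and 6 against 187 and 25 UMIs, with at most 16.0% from 1 cell in Rbpj-deleted tumours. Ch25h, a cholesterol hydroxylase, had 1 and 4 against 230 and 67 UMIs. Saa3, an acute phase protein, had 0 and 1 against 153 and 69 UMIs. Vegfa lost its call without control replicate 1 (adjusted p = 0.071), in DESeq2 (0.0501) and without cells over 20000 UMIs (0.052), and Ch25h (0.16) and Saa3 (0.075; edgeR unless stated) lost theirs when 4 of the 5 genes were required. No fold is given for these 4 genes, because the 115 and 84 control cells gave too few molecules.

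Chemokine genes had a median log2 difference of 0.72 in this contrast and cell cycle genes one of 0.79, with 0 of 15 and 0 of 18 passing. In the other microglia these medians were 0.75 and 2.46, so neither difference was particular to the activated cells. The number of calls rested on single libraries: leaving out Rbpj-deleted replicate 1 gave 845 genes, its replicate 2 gave 196, and control replicate 2 gave 113. With every cell thinned to 2000 UMIs, 10 of 778 genes passed.

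The last comparison asks whether the distance between activated cells and the other microglia of their own library differs with Rbpj. Of 9279 genes, 33 (0.356%) passed in the edgeR interaction fit with each library as a block, 19 with a larger and 14 with a smaller ratio in Rbpj-deleted tumours (DESeq2 called 13). The larger ratios were led in number by immediate early genes, 8 of 28, and the smaller ones held 4 of 18 cell cycle genes. Estimates were positive for 27 of the 28 immediate early genes (median 0.36) and for 0 of 18 cell cycle genes (median -1.09), beside a median of -0.01 for all genes tested. The Y-linked gene Eif2s3y, which only male cells carry, passed as well (-2.50 ± 0.37 SE, adjusted p = 0.0030, edgeR; named after its values were seen). It was at 54.5 and 40.6 CPM in activated cells against 28.5 and 46.4 CPM in other microglia of control tumours, and at 7.52 and 6.997 CPM against 35.8 and 22.8 CPM in Rbpj-deleted tumours. Activated cells of both Rbpj-deleted libraries thus had less of this male RNA than the other microglia of the same library. Eif2s3y was the only Y-linked gene among the 33, so the point rests on this gene alone. The deletion and a different make-up of animals in the compared cells cannot be told apart for the genes that follow.

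Fos, a subunit of AP-1, was at 3155 and 3109 CPM in activated cells and 3796 and 3506 CPM in other microglia of control tumours. In Rbpj-deleted tumours it was at 3311 and 1523 CPM in activated cells and 2111 and 968 CPM in others. The activated cells were below the others in both control libraries and above them in both Rbpj-deleted libraries (interaction 0.85 ± 0.11 SE on the log2 scale, adjusted p = 0.00043, edgeR). Neither the change in activated cells (-0.31 ± 0.34 SE) nor that in the others (-1.17 ± 0.35 SE) passed by itself. Egr1 was at 1506 and 1476 against 1699 and 1395 CPM in control and 1172 and 527 against 691 and 263 CPM in Rbpj-deleted tumours (0.90 ± 0.13 SE, adjusted p = 0.00094, edgeR). Dusp1, a phosphatase of MAP kinases, gave 0.79 ± 0.12 and Atf3, a stress-induced transcription factor, 0.77 ± 0.12.

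Fosb, Ier2, Junb and Zfp36, an RNA-binding protein that shortens cytokine messages, passed with 0.59 to 1.09, and so did Nfkbiz (0.90 ± 0.16) and the chemokine-binding receptor Ccrl2 (0.90 ± 0.17). For these 10 genes no cell gave more than 17.8% of the UMIs in any tumour sum. The Fos ratio was 0.08 in healthy replicate 1 and 0.60 in healthy replicate 2, and that of Egr1 was 0.21 and 1.02.

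Mki67, which marks cycling cells, was at 113 and 55.1 CPM in activated cells and 20.3 and 15.5 CPM in other microglia of control tumours. In Rbpj-deleted tumours it was at 61.6 and 281 CPM in activated cells and 46.3 and 215 CPM in the others, so the gap was smaller there (-1.86 ± 0.23 SE, adjusted p = 0.00033, edgeR). Single cells gave 53.3% and 27.5% of the Mki67 UMIs in the activated cells of control replicates 1 and 2. Top2a, a DNA topoisomerase of dividing cells, was at 76.9 and 81.2 against 17.6 and 19.5 CPM in control and at 70.1 and 237 against 51.3 and 190.4 CPM in Rbpj-deleted tumours (-1.73 ± 0.22 SE, adjusted p = 0.00038, edgeR). Stmn1, Ccnb1 and the histone genes Hist1h1b, Hist1h2ae and Hist1h2ap passed in the same direction. These 5 lost their call without Rbpj-deleted replicate 2 (adjusted p from 0.11 for Hist1h1b to 1 for Hist1h2ap, edgeR), and all of them except Hist1h1b also did in DESeq2. After thinning to 2000 UMIs the estimate was -0.54 for Mki67, -0.19 for Hist1h1b and -1.97 for Top2a, none of them past the threshold.

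Isg15 was at 279.9 and 251 CPM in activated cells against 80.6 and 76.5 CPM in others of control tumours, and at 281 and 325 against 163 and 199 CPM in Rbpj-deleted tumours (-1.03 ± 0.15 SE, adjusted p = 0.0014, edgeR). In the activated cells the groups differed by little, and the other microglia of Rbpj-deleted tumours had more than those of controls. Gbp2, an interferon-inducible GTPase, was at 734 and 598 against 310.3 and 251 CPM in control and at 261 and 434 against 192 and 295 CPM in Rbpj-deleted tumours (-0.77 ± 0.13 SE, adjusted p = 0.0045, edgeR). The type I interferon list had a median of -0.52 with 1 of 19 passing. Ptn, Clu, Igfbp2 and Plpp3 passed with larger ratios in Rbpj-deleted tumours, but in at least 1 tumour sum of each, 1 cell gave 93.9% to 100% of the UMIs. Calls in this comparison depended on who counts as activated, with 3 genes passing when 2 of the 5 genes sufficed and 2 genes when cells were thinned to 2000 UMIs. Fos was among the latter (adjusted p = 0.036, edgeR). Without Rbpj-deleted replicate 2, 13 of the 25 named genes lost their call, among them Atf3 (adjusted p = 0.054), Gbp2 (0.066), Nfkbiz (0.13), Ccrl2 (0.20), Junb (0.37) and Zfp36 (0.51, all edgeR). In DESeq2 14 of the 25 did not pass, among them Isg15 (adjusted p = 0.070), Gbp2, Nfkbiz, Ccrl2, Junb and Zfp36.

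**Figure D5:**
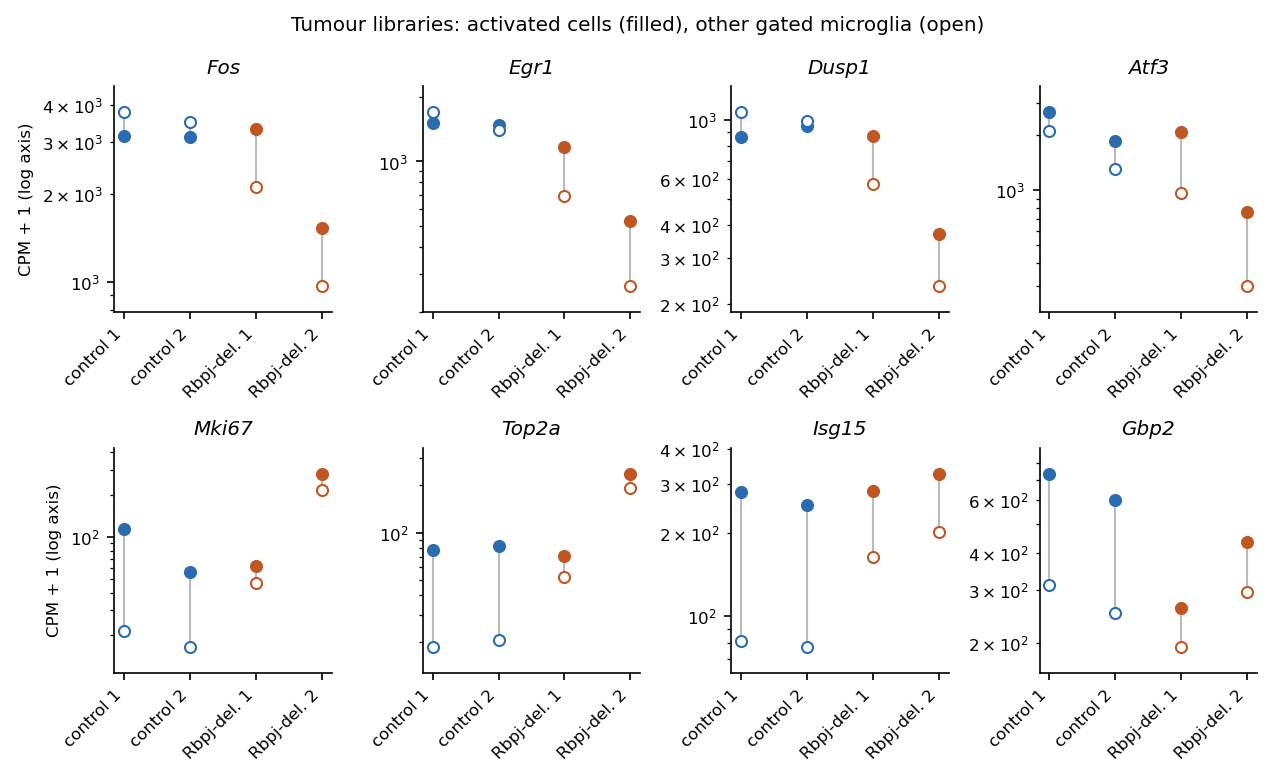
Level in CPM plus 1 (log axis) of 8 genes whose distance between activated cells (filled) and other gated microglia (open) differed between control (blue) and Rbpj-deleted (orange) tumours, 2 libraries each. For Fos the open points lie above the filled ones in control and below them in Rbpj-deleted libraries, and for Mki67 the gap is wider in control libraries.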

How the data were processed

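The authors deposited 1 table of whole-number counts per gene and barcode, taken here as UMI counts. The tools kallisto (0.46.0) and bustools (0.39.3), and mm10 as build, are listed per the submitters' processing notes, without roles. Every deposited barcode had at least 1000 counts, and 27359 of 27378 gene IDs had a symbol. Totals were 55229031, 17430763, 18217310, 17978360, 49252701 and 32731006 counts (healthy, control, Rbpj-deleted; replicates 1 and 2). No barcode was removed, and doublets were not called; 413 barcode sequences occurred in more than 1 library (6 of them on activated cells).

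Barcodes were assigned to libraries by the sample title in their names. Counts were summed per library for activated cells and for other gated microglia and tested with edgeR 4.0.16 (filterByExpr, TMM, robust quasi-likelihood, Benjamini-Hochberg over all genes tested), 2 residual degrees of freedom. A second count came from DESeq2 1.42.0. The code was tested on simulated data. Ratios within libraries used CPM with 1 CPM added.

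The cells and gene lists were chosen with earlier results of these data known. Named genes were the 5 of the rule, the 12 highest and 12 lowest of the within-library profile at 100 CPM or more, up to 10 rises and 10 falls per fit at 20 CPM or more without overlap (predicted, ribosomal, mitochondrial, receptor segment and sex-linked genes left out), list members that passed, and up to 4 abundant members per list. Other genes named in the text were chosen after their values were seen. Promoter windows of Egr3 and Hcar2 were not used here.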

Additional observations from a re-analysis of the deposited data

Results flagged for a closer look

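The distance between activated cells and other microglia of the same library differed between Rbpj-deleted and control tumours for 25 named genes, by the interaction term of the edgeR fit. On the log2 scale the ratio was larger in Rbpj-deleted tumours for Fosb (1.09), Egr1 (0.90), Ccrl2 (0.90), Nfkbiz (0.90), Fos (0.85), Ier2 (0.85), Dusp1 (0.79), Atf3 (0.77), Junb (0.68) and Zfp36 (0.59). It was also larger for Igfbp2 (4.63), Clu (4.36), Ptn (3.77) and Plpp3 (2.56), genes whose UMIs came mostly from 1 cell in at least 1 tumour sum. The same holds for AA467197 and Mki67, where 1 cell gave 95.3% and 53.3% of the UMIs in activated cells of control replicate 1. It also holds for Hist1h1b (73.7% in other microglia of that library). For Chst1 and Ccnb1, 1 cell gave all UMIs in other microglia of each control tumour. The ratio was smaller for the cell cycle genes Ccnb1 (-3.06), Mki67 (-1.86), Top2a (-1.73) and Stmn1 (-1.07) and the histone genes Hist1h1b (-2.30), Hist1h2ae (-1.02) and Hist1h2ap (-0.91). It was smaller as well for AA467197 (-3.32), Chst1 (-3.28), Isg15 (-1.03) and Gbp2 (-0.77). Other microglia of the 2 control tumours held 4 and 0 UMIs of AA467197, 1 and 1 of Chst1 and 3 and 1 of Ccnb1, so the fitted values of these 3 genes rest on almost no molecules and are not sizes of effect. Activated cells of the 4 tumour libraries had medians of 11635 to 14932 UMIs against 5574 to 7642 in the others, and after thinning each cell to 2000 UMIs 2 genes passed in this fit, Fos among them.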

How the results depend on the processing

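For activated cells of Rbpj-deleted against control tumours, 67 genes passed; the count was 77 to 845 without 1 library (the highest without Rbpj-deleted replicate 1, as for other microglia), 204 with no low-count filter, 41 with no lymphocyte UMI allowed, 10 after thinning to 2000 UMIs, 138 with a replicate block and 29 when all 6 libraries shared the spread (added after seeing the data). For other microglia, 32 became 90 in DESeq2, 495 with no filter, 40 to 1028 without 1 library, 53 with 4 of the 5 genes required, 49 after thinning, 57 without cells over 20000 UMIs (added) and 116 with the replicate block. For the difference of the profile, 33 became 13 in DESeq2, 95 with no filter, 30 to 116 without 1 library (68 without Rbpj-deleted replicate 1 and the highest without control replicate 2), 3 with 2 and 77 with 4 of the 5 genes required, 16 with no lymphocyte UMI and 2 after thinning, where Ptn reversed to -0.30. Library is already a block in that fit. The replicate numbers are shared labels only: over 8631 genes the differences between replicates 1 and 2 of the 2 tumour groups correlated at -0.11. With the numbers crossed in 1 group (added), the block gave 35 and 236 genes. The share difference between Rbpj-deleted and control tumours, -3.03 points, was 2.01 after thinning and -22.1 to 16.0 without 1 library (added). That between tumours and healthy brain, 33.4 points, was 11.5 after thinning and 27.6 to 40.3 without 1 library. The 9 genes at least 2-fold higher became 4 when 4 of the 5 genes were required and 10 to 24 without 1 library (15 without Rbpj-deleted replicate 2 and the highest without control replicate 1), and the 5 lower ones 2 with 6 gate UMIs or with 2 of the 5 genes, 15 after thinning and 5 to 7 without 1 library. Scaling by size factors or library size, leaving out shared barcodes, and asking for 2 gate genes (added) kept the counts of the 3 fits within 1.5 times. A tumour group reduced to 1 library borrowed its spread from the remaining group. The causes were not tested.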
